A study of Mus musculus with 4 samples.

Results

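The beta-adrenergic, protein kinase A (PKA) and RGS signalling genes are 9 mouse genes, Rgs2, Rgs5, Adrb1, Prkaca, Prkar1a, Prkar2a, Gnas, Gnaq and Pja2. They were followed through every probe set (a group of array probes read as 1 value) that carries 1 of these symbols alone. Some of these probe sets hold probes shared between transcripts. The rule gave 18 probe sets of 22690 on the array, for 8 of the 9 genes, out of 12393 genes with a probe set of their own. Adrb1 had no probe set with its symbol in the annotation used and is not analysed here. The genes were chosen with their values on these arrays known, so their levels and differences are given as a description, with no test.

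Gene expression was measured in left ventricle of mice on 4 arrays, 1 for each group. IL-18 KO banded hearts lacked the cytokine gene Il18, on a C57BL/6 background per the labels, and were labelled as banded by transaortic constriction for 1 week, with RNA of 6 hearts pooled. IL-18 KO sham hearts were sham-operated knockouts, with 5 mice. WT banded hearts had the same kind of constriction, and WT sham hearts were sham-operated wild-type hearts. Pools of 5 to 6 per group are stated for the whole design, while the strain and age of the WT mice, the WT banding time and the age of the knockouts are not given in the sources used here. The constriction loads the left ventricle with pressure, and the series asks what IL-18 does to gene expression in the hypertrophy that follows. Each group is 1 array of pooled RNA, so no difference below has an error, a replicate check or a p-value.

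In heart muscle cells, noradrenaline and adrenaline bind the beta-1 receptor (Adrb1), which acts through the stimulatory G protein alpha subunit (Gnas) to raise cyclic AMP. Cyclic AMP binds the regulatory subunits of PKA (Prkar1a, Prkar2a) and frees the catalytic subunit (Prkaca), which phosphorylates calcium-handling and contractile proteins and the transcription factor CREB. Alpha-1 adrenergic, angiotensin and endothelin receptors act instead through Gnaq, a pathway tied to hypertrophic growth. RGS proteins speed the hydrolysis of GTP by G protein alpha subunits and so end their signals, and Pja2 is a ubiquitin ligase that targets PKA regulatory subunits for degradation.

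PKA acts on transcription through CREB, which binds the cyclic AMP response element TGACGTCA or its shorter core TGACG. Of the 5 genes with a probe set past 2-fold in these data, the 4 with such a core before an annotated start are shown for this reason by the 250 bases before it, with each TGACG on either strand in capitals (sequences from RefSeq, build GRCm38.p6).
Rgs2, chr1:144004150-144004399, minus strand: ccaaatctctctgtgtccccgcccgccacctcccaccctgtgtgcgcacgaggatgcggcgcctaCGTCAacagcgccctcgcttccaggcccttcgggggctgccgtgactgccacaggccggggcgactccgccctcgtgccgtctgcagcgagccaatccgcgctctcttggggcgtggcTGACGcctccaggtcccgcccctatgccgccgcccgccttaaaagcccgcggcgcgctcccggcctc
Prkaca, chr8:83972728-83972977, plus strand: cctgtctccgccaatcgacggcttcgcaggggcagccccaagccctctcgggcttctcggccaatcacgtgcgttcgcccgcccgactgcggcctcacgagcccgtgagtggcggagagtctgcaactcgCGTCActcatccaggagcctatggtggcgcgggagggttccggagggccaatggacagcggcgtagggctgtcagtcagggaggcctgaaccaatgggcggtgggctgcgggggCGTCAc
Prkar1a, chr11:109650699-109650948, plus strand: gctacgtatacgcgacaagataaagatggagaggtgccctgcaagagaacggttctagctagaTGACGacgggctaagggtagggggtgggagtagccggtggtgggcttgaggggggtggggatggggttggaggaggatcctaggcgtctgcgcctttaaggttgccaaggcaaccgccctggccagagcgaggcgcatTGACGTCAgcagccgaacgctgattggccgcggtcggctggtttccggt
Pja2, chr17:64331884-64332133, minus strand: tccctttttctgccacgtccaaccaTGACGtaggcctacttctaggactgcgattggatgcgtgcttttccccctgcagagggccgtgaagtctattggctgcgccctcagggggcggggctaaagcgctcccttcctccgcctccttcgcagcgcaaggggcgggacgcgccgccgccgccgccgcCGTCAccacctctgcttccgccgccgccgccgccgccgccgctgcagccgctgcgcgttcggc
In Rgs2 the capitals begin 185 and 67 bases before the start, and in Prkaca 120 and 6 bases before it. In Pja2 they begin 225 and 63 bases before the start. Another annotated start of Prkaca had no core in the 300 bases searched around it. The Prkar1a sequence, 1 of 6 annotated starts of that gene, has a core 187 bases before the start. It also holds the full TGACGTCA, which reads as a core on each strand in overlap, from 49 bases before the start. RefSeq windows of 300 bases (250 before to 50 after the start) were searched for all 9 genes, 18 windows in all, and 11 held the core and 2 the full element. Those 2 are overlapping Prkar1a windows with the same element, and the 18 are not separate promoters. Among all 32851 windows in the table, 20.8% held the core and 1.79% the full element. The Rgs5 and Gnaq windows held neither, which says only that these letters are not there.

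The values are intensities from GCRMA on a linear scale, and differences between 2 arrays are in log2 units. Intensities under 64 (a floor of log2 6) were set to 64 before differences were taken, so that a difference with 1 array under the floor is a bound, marked "at least". A difference of at least 1 (2-fold) is called past 2-fold. Levels of different probe sets are not comparable, since each binds its target differently. Of the 18 probe sets, 13 reached the floor on 1 array or more and 7 on all 4. The other 5 were under it on every array: the only probe sets of Gnaq (4.8 to 5.3) and Prkar2a (4.0 to 15.7), 1 of the pair for Rgs2 (8.6 to 39.5), and 2 of 4 for Gnas (5.8 to 8.6 and 7.4 to 13.0). No statement about Gnaq or Prkar2a can be made from these arrays beyond that bound.

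The arrays differed in the control probe sets at the 3′ end, middle and 5′ end of Gapdh, Actb and the bacterial transcript dap. The middle probe set of Gapdh read 3885.1 in KO banded, 1619.6 in KO sham, 17062.5 in WT banded and 83.6 in WT sham. With the same floor, the 9 control probe sets differed by between -0.10 and 1.26 for KO banded minus KO sham, where 8 were measured, 7 of them higher and 1 lower in KO banded. All 9 were higher in WT banded than in WT sham, by 2.91 to 7.67, with 4 of the differences as bounds. Between the sham arrays, KO minus WT, the 8 measured ones differed by 0.46 to 4.28, 3 as bounds. Between the banded arrays, KO minus WT, all 9 were lower, with differences of -4.47 to -0.12, 1 as a bound. The controls lay closest in the knockout pair. The deleted gene, Il18, read 8.4 in KO banded, 8.2 in KO sham, 7.4 in WT banded and 9.1 in WT sham, under the floor on every array, so it checks no genotype label. All 7 cardiomyocyte markers were above the floor on every array. None passed 2-fold with KO banding, while with WT banding Actn2 (9434.5 in WT banded against 429.1 in WT sham, a difference of 4.46) and Ttn (1.05) were higher as deposited. After quantile normalization only 1 of the 7 was higher past 2-fold with WT banding. None of the 5 neuronal markers reached the floor. Of 6 fibroblast markers 4 were higher past 2-fold with banding in each genotype as deposited, Dcn among them in WT only and Lum in KO only. The count was 3 in each genotype after quantile normalization, and 3 in KO and 4 in WT after cyclic loess. Pdgfra was lower within 2-fold in both (-0.84 in KO and -0.61 in WT). The summed intensity of the list, in which the brightest probe sets weigh most, was 22440.8 in KO banded and 9374.1 in KO sham. It was 16983.8 in WT banded and 5012.6 in WT sham. Of 5 macrophage markers measured 2 were higher past 2-fold with KO banding and 3 with WT banding. Of 3 markers measured on the smooth muscle list, Tagln (1.26) was higher past 2-fold with KO banding. With WT banding Tagln (at least 2.32) and Des (at least 6.45) were, both under the floor in WT sham. Acta2, the third, differed by 0.33 with KO banding and -0.33 with WT banding. No marker on these 3 lists was lower past 2-fold with banding in either genotype. Within 2-fold, the macrophage markers Csf1r (-0.67) and Adgre1 (-0.30) were lower with WT banding. Of the 3 higher macrophage markers there, Fcgr3 and C1qa were under the floor in WT sham. After quantile normalization 1 macrophage marker was higher with KO banding and 2 with WT banding, and after cyclic loess 1 and 3. The part of cell make-up in the values below was not tested.

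**Figure D1:**
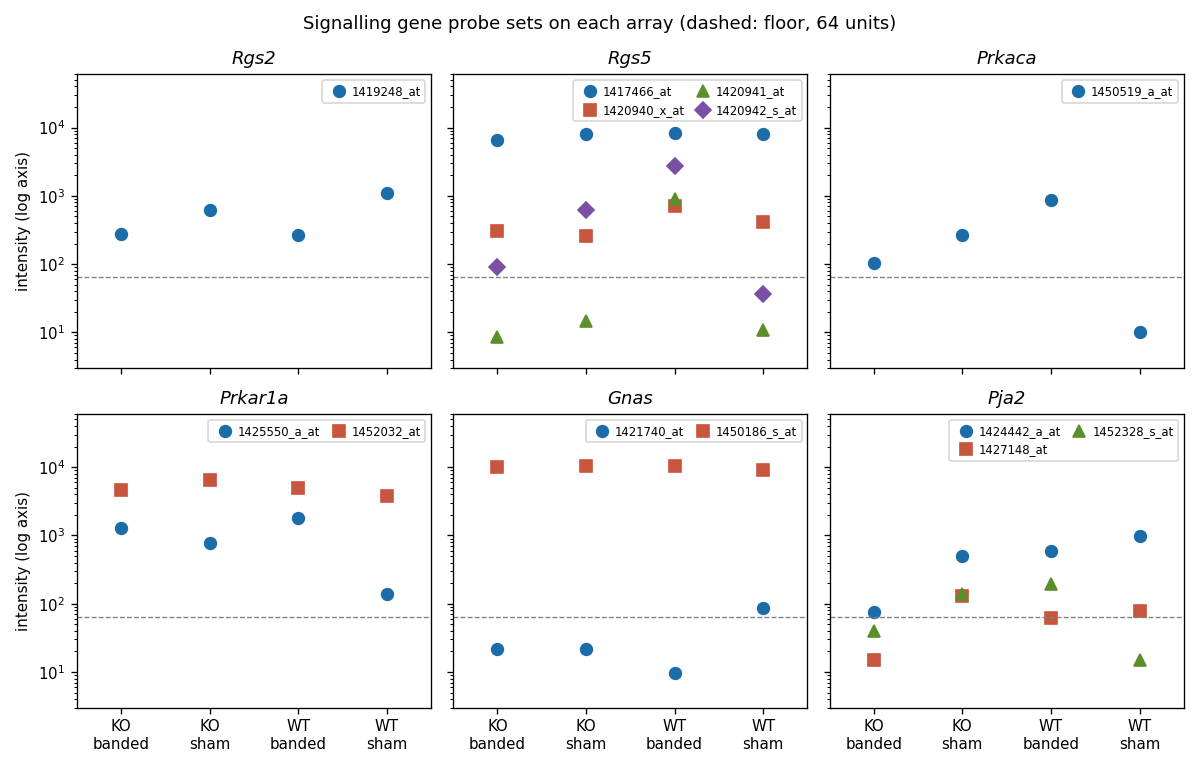
Intensity (log axis) of the 13 measured probe sets of Rgs2, Rgs5, Prkaca, Prkar1a, Gnas and Pja2 on each of the 4 arrays, 1 point per array, with the floor of 64 dashed. Rgs2 is lower on both banded arrays than on both sham arrays, while Rgs5 1420942_s_at, Prkaca 1450519_a_at, Prkar1a 1425550_a_at and Pja2 1452328_s_at are highest in WT banded and lowest in WT sham.

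Rgs2, whose product ends signals of Gq-class alpha subunits, was lower with banding in both genotypes. Probe set 1419248_at read 272.9 in KO banded against 611.0 in KO sham, and 271.1 in WT banded against 1085.6 in WT sham. Both banded values lay under both sham values, and the 2 banded arrays differed by 0.01 between genotypes. The difference was -1.16 in KO and -2.00 in WT, a 4.0-fold lower signal in WT banded. Among the sham arrays KO was lower than WT by less than 2-fold (-0.83). The other Rgs2 probe set, made from the same sequence record, read 8.6 and 39.5 in KO banded and KO sham, and 13.1 and 14.6 in WT banded and WT sham, all under the floor. Rgs2 lies on chromosome 1 at 143999338 to 144004149, and Rgs5 on the same chromosome at 169655501 to 169695813 (GRCm38.p6, as for the genes below).

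Rgs5, a regulator of the same class that is best known as a marker of pericytes, the contractile cells on capillaries, gave different answers in its 4 probe sets. Probe set 1417466_at was high and nearly even, at 6502.3 in KO banded, 8115.1 in KO sham, 8371.2 in WT banded and 8081.6 in WT sham. Its highest and lowest arrays were 1.29-fold apart. Probe set 1420942_s_at instead read 91.2 in KO banded against 609.6 in KO sham, and 2758.0 in WT banded against 36.2 in WT sham. It was therefore lower with banding in KO (-2.74) and higher with banding in WT (at least 5.43). Probe set 1420941_at was above the floor in WT banded alone, at 895.7, against 8.6 in KO banded, 14.7 in KO sham and 10.8 in WT sham. Probe set 1420940_x_at read 307.2 in KO banded, 261.3 in KO sham, 711.1 in WT banded and 410.7 in WT sham. As deposited, its difference passed 2-fold between the banded arrays alone (-1.21, KO minus WT), and after cyclic loess the WT banding difference did too (1.01, against 0.79 as deposited). The 3 probe sets other than 1417466_at come from 1 shared sequence record. In all 4 Rgs5 probe sets the highest array was WT banded, though 1417466_at was nearly even.

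The spread between the floored differences of the Rgs5 probe sets was 5.38 in log2 for WT banding and 2.97 for KO banding. Of 1485 genes with at least 2 measured probe sets, 10.5% had a spread of 3 or more in WT banding, with a median spread of 1.25. Of 1337 such genes in KO banding, 0.449% had a spread of 3 or more and the median was 0.51. Of 6 pericyte markers on the array 5 were measured, and Cspg4 was under the floor. With KO banding Abcc9, a potassium channel subunit of pericytes and heart muscle cells, was lower (-2.73) and Pdgfrb, the pericyte growth factor receptor, higher (1.02, though within 2-fold after quantile normalization or cyclic loess). With WT banding 2 of the 5 were higher as deposited, Abcc9 (1.20) and Notch3 (1.60), and 0 lower. After quantile normalization 4 were measured, 1 higher and 1 lower, and after cyclic loess 2 were higher and 0 lower. The summed intensity of the list was 1664.9 in KO banded, 1878.6 in KO sham, 2301.0 in WT banded and 1844.2 in WT sham. In that sum the brightest probe sets, Pdgfrb and Abcc9, weigh most, and they went opposite ways with KO banding. In pooled tissue, fewer cells of a type and less RNA per cell cannot be told apart, and the part of pericyte number in the Rgs5 values was not tested.

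Gnas, the stimulatory alpha subunit, had the most even of the 13 measured probe sets. Probe set 1450186_s_at read 10155.8 in KO banded, 10413.2 in KO sham, 10388.9 in WT banded and 9163.6 in WT sham, 1.14-fold from highest to lowest. Its differences were -0.04 with banding in KO and 0.18 with banding in WT. Probe set 1421740_at, under the same symbol, was above the floor in WT sham alone, at 87.8, against 21.4 in KO banded, 21.4 in KO sham and 9.6 in WT banded. The Gnas locus on chromosome 2 (174284320 to 174346744) gives several transcripts from separate starts, and 4 starts are in the RefSeq table. Which of these each probe set binds was not examined.

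Prkaca, the PKA catalytic subunit alpha, varied widely in its 1 probe set, 1450519_a_at (gene on chromosome 8, 83972978 to 83996444). It read 104.7 in KO banded against 267.4 in KO sham, and 862.5 in WT banded against 10.2 in WT sham. The signal was lower with banding in KO (-1.35) and higher with banding in WT (at least 3.75). It was also higher in KO sham than in WT sham (at least 2.06) and lower in KO banded than in WT banded (-3.04). The order of the arrays, WT banded highest and WT sham lowest, was also that of the Gapdh, Actb and dap middle probe sets. The part of transcript coverage in the Prkaca values was not tested.

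Prkar1a, the type I regulatory subunit that holds PKA inactive until cyclic AMP binds, had 2 measured probe sets (gene on chromosome 11, 109649023 to 109669663). Probe set 1452032_at read 4708.0 in KO banded, 6459.3 in KO sham, 4880.1 in WT banded and 3730.1 in WT sham. All of its differences lay within 2-fold, between -0.46 (KO banding) and 0.79 (KO sham minus WT sham, which reached 2-fold after cyclic loess). Probe set 1425550_a_at read 1289.2 in KO banded against 772.6 in KO sham, and 1805.0 in WT banded against 137.0 in WT sham. WT sham stood well below the other arrays there, with differences of 3.72 for WT banding and 2.50 for KO sham minus WT sham. Both of those subtract the same WT sham array. With KO banding, 1425550_a_at differed by 0.74 and 1452032_at by -0.46.

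Pja2, the ubiquitin ligase of PKA regulatory subunits, was lowest in KO banded on its brightest probe set (gene on chromosome 17, 64281006 to 64331883). Probe set 1424442_a_at read 76.2 in KO banded against 492.6 in KO sham, and 583.6 in WT banded against 970.2 in WT sham. The KO banded array stood apart from the other 3, with a difference of -2.69 from KO sham and of -2.94 from WT banded. The WT banding difference was -0.73. Probe set 1427148_at read 15.1 in KO banded, 131.5 in KO sham, 61.4 in WT banded and 78.5 in WT sham. Probe set 1452328_s_at read 39.3 in KO banded, 139.2 in KO sham, 197.1 in WT banded and 15.1 in WT sham. It comes from the same sequence record as 1427148_at. In KO all 3 were lower with banding past 2-fold, the last 2 by at least 1.04 and at least 1.12, as bounds that a floor of log2 7 takes to -0.04 and -0.12. In WT they disagreed, with 1452328_s_at higher by at least 1.62 and the other 2 within 2-fold.

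**Figure D2:**
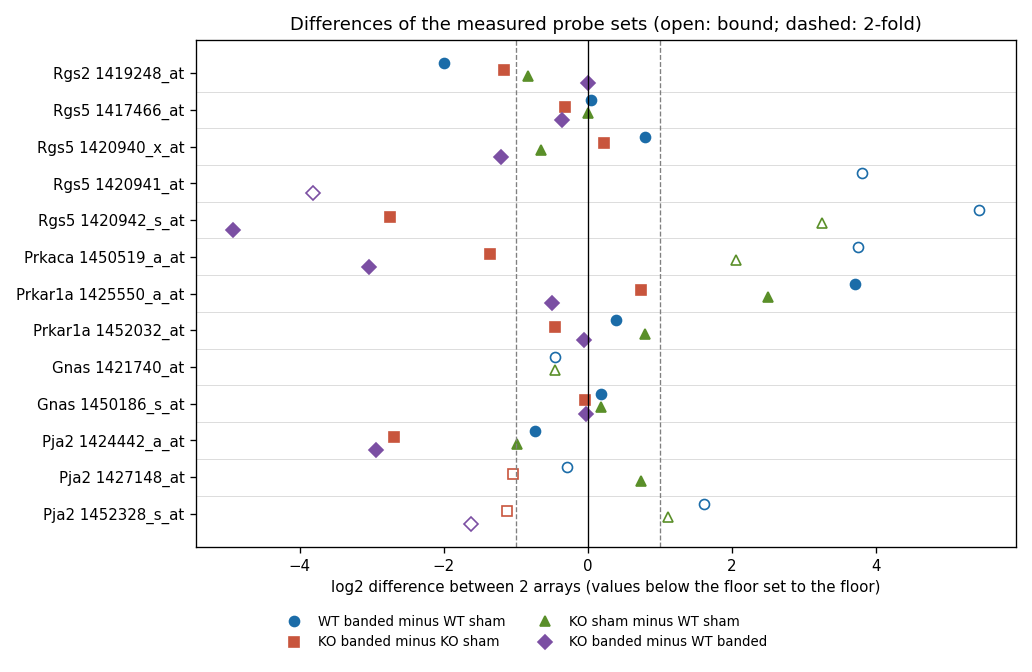
Log2 differences of the 13 measured probe sets in the 4 comparisons, with open symbols for bounds and dashed lines at 2-fold. KO banding differences past 2-fold are all negative, and the WT banding differences run from -2.00 for Rgs2 to at least 5.43 for Rgs5.

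With KO banding, 6 of 11 measured probe sets of the group were past 2-fold, all of them lower, in 4 genes (Rgs2, Rgs5, Prkaca and Pja2). Over all 6743 probe sets measured in that comparison 10.8% were past 2-fold, 4.2% lower and 6.64% higher. The median was -1.04 for the group and 0.06 for all. The genes were chosen on these same differences, so nothing is read from the gap.

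With WT banding, 6 of 13 were past 2-fold, 5 higher (Rgs5 by 2 probe sets, Prkaca, Prkar1a and Pja2) and 1 lower (Rgs2). The background was 36.4% of 7200 probe sets, 24.9% higher and 11.5% lower, so the count of 5 higher stood beside a high rate on the whole array. The median was 0.39 for the group and -0.02 for all. Scaling mattered for this background. After quantile normalization 1439 probe sets were higher and 1674 lower in WT banded, against 1792 and 828 as deposited, with the median of all at -0.34. Cyclic loess gave 2003 higher and 527 lower, with the median at 0.16. No probe set of the group past 2-fold changed sign under either scaling.

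Between the sham arrays, KO minus WT, 4 of 12 measured probe sets were past 2-fold and all higher in KO as deposited, for Rgs5, Prkaca, Prkar1a and Pja2 1452328_s_at. The background was 24.4% of 6797, 18.4% higher and 6.02% lower. Pja2 1424442_a_at went the other way, lower in KO by less than 2-fold (-0.98) as deposited and past 2-fold (-1.10) after quantile normalization. This comparison and WT banding subtract the same WT sham array. Quantile normalization gave 1069 higher and 855 lower over all probe sets, against 1249 and 409 as deposited, with the median of all at -0.26 and -0.05. Cyclic loess gave 1429 higher and 249 lower, with the median at 0.10.

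Between the banded arrays, KO minus WT, 6 of 11 were past 2-fold and all lower in KO: 3 probe sets of Rgs5, 1 of Prkaca and 2 of Pja2. The background was 16% of 7039, 10.9% lower and 5.11% higher. Rgs2, Prkar1a and Gnas differed by less than 2-fold there. Of the 13 measured probe sets 7 were highest in WT banded, 3 in KO sham, 3 in WT sham and 0 in KO banded. Over all 7366 measured probe sets 29.8% were highest in WT banded, 12% in KO sham, 35.4% in WT sham and 22.9% in KO banded.

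**Figure D3:**
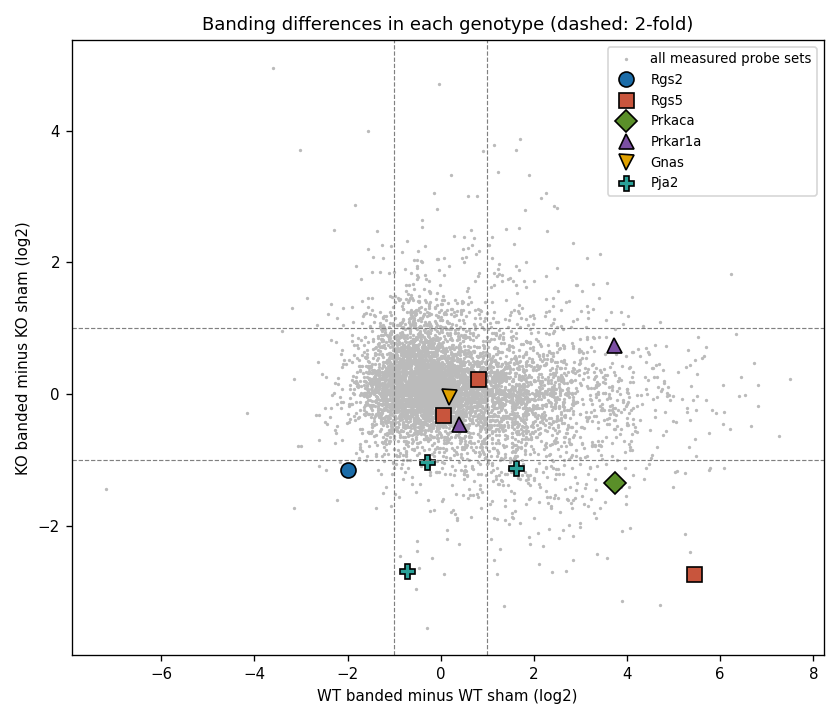
Difference with banding in WT (x axis, log2) and in KO (y axis, log2) for every probe set measured in both, in grey, with those of the signalling genes in colour and 2-fold dashed. Rgs2 lies in the lower left (-2.00 and -1.16), and Rgs5 1420942_s_at, Prkaca and 1 Pja2 probe set lie in the lower right, higher with WT banding and lower with KO banding.

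In 4 of the 13 probe sets WT banded was the highest array and WT sham the lowest: Rgs5 1420942_s_at, Prkaca 1450519_a_at, Prkar1a 1425550_a_at and Pja2 1452328_s_at. Over all 7366 measured probe sets 21.8% had that pattern. The middle probe sets of all 3 control transcripts also had WT banded highest and WT sham lowest, and the plot of controls sets both beside each other. With KO banding the 4 probe sets differed by -2.74 (Rgs5), -1.35 (Prkaca), 0.74 (Prkar1a) and at least 1.12 lower (Pja2), and the Gapdh, Actb and dap middle probe sets by 1.26, 0.31 and -0.10. The part of the control shift in the values of these genes was not tested.

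**Figure D4:**
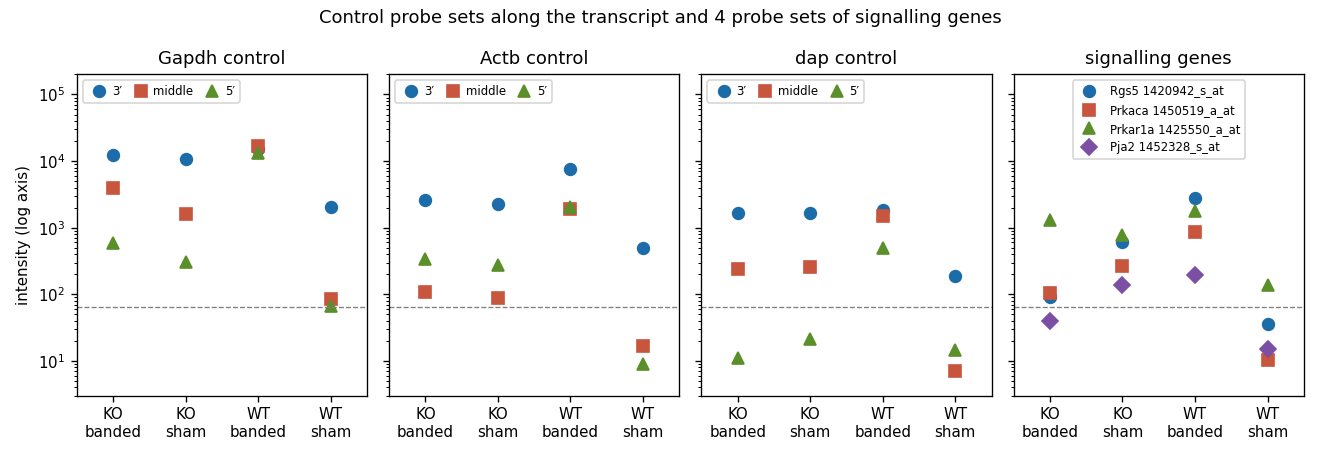
Intensity (log axis) at the 3′ end, middle and 5′ end of the Gapdh, Actb and dap controls on each array, and of 4 probe sets of the signalling genes in the right panel. The 3′, middle and 5′ points of each control are highest in WT banded. The 4 signalling probe sets are likewise highest in WT banded, and lowest in WT sham.

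The wider pathway was read from lists of genes, with the brightest probe set of each gene. Of 16 adrenergic and related receptor genes, 3 were on the array with a symbol of their own and 0 reached the floor. Outside the genes above, 40 pathway genes were measured in the knockout pair, of which 5 were higher and 2 lower in banded. That is 17.5%, against 9.51% of 4827 genes (6.98% higher and 2.53% lower). In the WT pair 43 were measured, with 12 higher and 5 lower in banded, 39.5% against 34.6% of 5040 genes (21.7% higher and 12.8% lower). Between the sham arrays, KO minus WT, 6 of 41 were higher and 1 lower, 17.1% against 22.6% of 4851 genes (16.3% higher and 6.29% lower). Between the banded arrays, KO minus WT, 7 of 43 were higher and 7 lower, 32.6% against 13.4% of 4947 genes (5.7% higher and 7.74% lower). The lists were chosen with earlier results of these data known, so nothing is read from these gaps.

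Among PKA subunits and inhibitors, 5 of 8 on the array were measured and on the brightest probe sets Prkaca was the only one past 2-fold in each comparison as deposited. Prkacb, the catalytic subunit beta, read 378.7 in KO banded, 361.8 in KO sham, 436.2 in WT banded and 269.8 in WT sham, all within 2-fold. Pkia, an inhibitor peptide of the catalytic subunit, was even on its brightest probe set (0.13 with KO banding and -0.42 with WT banding). Its probe set 1420858_at read 243.7 in KO banded against 1026.3 in KO sham, and 1186.4 in WT banded against 192.4 in WT sham. Those differences of -2.07 and 2.62 have the signs seen for Prkaca.

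PKA anchoring proteins hold the kinase near its substrates. Akap1, the anchor on the outer mitochondrial membrane, read 186.4 in KO banded against 454.9 in KO sham (-1.29), and 691.8 in WT banded against 125.5 in WT sham (2.46). Akap2 was higher with WT banding (1.25) and under the floor on both KO arrays. Of 5 measured anchors, 2 were higher and 1 (Ezr, -1.18) lower with WT banding, and with KO banding 1 of 4 was lower. After quantile normalization the WT split was 1 higher and 2 lower.

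In the RGS family 5 of 17 on the array were measured. On the brightest probe sets none was higher past 2-fold with banding in either genotype, under the deposited scale, quantile normalization or cyclic loess. Rgs4, which is known to act on Gq and Gi, read 64.3 in KO banded against 129.5 in KO sham (-1.01), and 107.4 in WT banded against 141.6 in WT sham (-0.40). Its KO banded value lay just above the floor of 64, which limits that difference. Rgs10 read 237.4 in KO banded against 131.3 in KO sham (0.85), and 98.7 in WT banded against 163.1 in WT sham (-0.72).

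Of 12 G protein subunits measured in the knockout pair, Gnas included, 2 were higher with banding past 2-fold and 0 lower. Gna13, an alpha subunit, read 260.8 in KO banded against 70.0 in KO sham (1.90), and 150.0 in WT banded against 32.0 in WT sham (at least 1.23). Its other measured probe set was within 2-fold, at 0.03 and 0.20. Gnb4, a beta subunit, differed by 1.35 in KO and -0.07 in WT. With WT banding 4 of 14 were higher and 3 lower. After quantile normalization that split was 3 and 3, and after cyclic loess 4 and 1.

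Among enzymes of cyclic AMP, Pde4b, a phosphodiesterase that degrades it, read 990.2 in KO banded against 375.1 in KO sham (1.40), and 345.5 in WT banded against 477.1 in WT sham (-0.47). Pde8a, of the same class, read 107.4 in WT banded against 230.3 in WT sham (-1.10) and differed by 0.15 with KO banding. The cyclase list had 4 measured genes, Cap2 included. With WT banding 2 of them were higher, Adcy6 (at least 3.29) and Adcy9 (at least 1.41), both named after their values were seen. After quantile normalization 2 were higher and 1 lower. Adcy7, an adenylyl cyclase, differed by 1.06 with KO banding, though no longer past 2-fold after quantile normalization or cyclic loess, and by -0.76 with WT banding. Cap2, a cyclase-associated protein, differed by -0.32 and 0.63. Its other probe set gave -0.36 with KO banding and 2.21 with WT banding. Of the 2 receptor kinase and arrestin genes measured, Grk5 differed by 0.81 with KO banding and -0.19 with WT banding.

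PKA substrates and cyclic AMP response factors had 1 of 10 measured members past 2-fold with KO banding, Crem. This cyclic AMP response factor is named here after its values were seen. It read 257.8 in KO banded, 39.9 in KO sham, 39.0 in WT banded and 38.8 in WT sham, so it was above the floor in KO banded alone (at least 2.01). With WT banding 4 of 9 were higher and 0 lower. They included Mybpc3, a sarcomere protein that PKA phosphorylates, at 16556.4 in WT banded against 948.5 in WT sham (4.13), and Fxyd1, the phospholemman gene, at 4931.9 against 369.0 (3.74). The other 2, Cacnb2 (at least 1.19) and Popdc2 (at least 4.98), were named after their values were seen. Mybpc3 and Fxyd1 were within 2-fold in the knockout pair (0.18 and -0.22) and past 2-fold higher in KO sham than in WT sham (3.45 and 3.04).

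**Figure D5:**
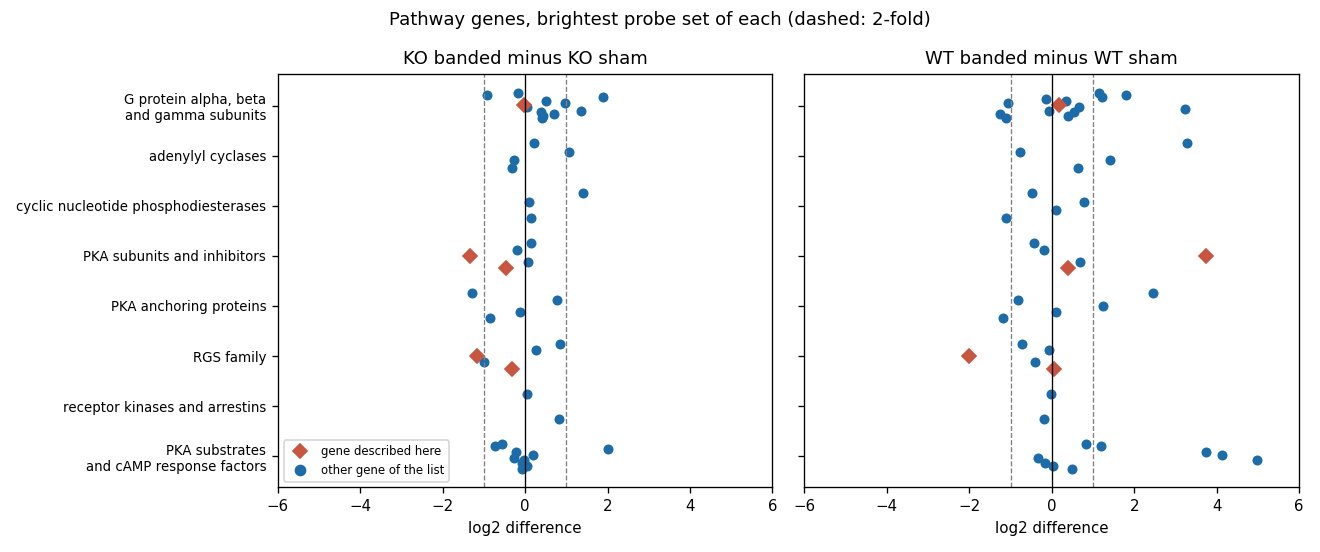
Log2 difference with banding in KO (left) and in WT (right) for the brightest probe set of each measured gene in 8 pathway lists, with diamonds for the genes described here and 2-fold dashed. The points spread wider in WT, where Prkaca sits at 3.75 as a bound and Rgs2 at -2.00.

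The genes whose 4-array pattern lay closest to each group member were found by distance between centred log2 profiles over the 4 arrays, among 3986 other genes at or above the floor on all 4. Only Rgs2 and Pja2 had a brightest probe set that met the conditions. Pisd-ps3 (distance 0.29) and Zdhhc14 (0.30) lay closest to Rgs2, where the median distance was 1.70. Zdhhc14 read 183.2 in KO banded against 374.0 in KO sham, and 137.0 in WT banded against 613.5 in WT sham. Ptprb, an endothelial phosphatase gene, lay closest to Pja2 (distance 0.47, median 2.89), at 71.0 in KO banded against 443.7 in KO sham, and 434.5 in WT banded against 600.8 in WT sham. Ppargc1b, a coactivator of mitochondrial genes, came next at 1.40. A match over 4 arrays is a weak description.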

How the data were processed

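Biotin-labelled total RNA, pooled within each group, was measured on 1 array per group. The authors deposited intensity values per probe set on a linear scale, computed with GCRMA per the submitters' processing notes. Its version, its settings and any later scaling are not given in the sources used here. The linear scale was read from the values (1.5 to 43811.1). The number of arrays limits the precision.

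Probe sets with 1 platform gene were used (20380 of 22690), and 20351 matched the RefSeq table of GRCm38.p6 by gene identifier, with 0 symbols changed. Intensities were converted to log2 with a floor of 6, and probe sets at or above it on at least 1 of the 2 arrays entered a comparison. Pathway and marker lists (9 each) used the probe set of each gene with the highest mean. The genes and lists were chosen with earlier results of these data known. From each pathway list up to 2 genes with the largest banding difference above the floor on both arrays were named. The code that counts differences past 2-fold was checked on simulated data. Python 3.11.15, pandas 2.3.3, R 4.3.3 and limma 3.58.1 (quantile normalization and cyclic loess) were used. Alternatives were other floors, scalings, units of counting, probe set filters and a 1.5-fold threshold.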

Additional observations from a re-analysis of the deposited data

Results flagged for a closer look

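In 3 probe sets the banded array lay past 2-fold above its sham array in WT and past 2-fold below it in KO, of 11 measured in both genotypes. Of all 6577 probe sets measured in both, 2.62% had that pattern. The genes were chosen on these values, so nothing is read from the gap. With 1 array per group the difference between genotypes was not tested. The KO banding difference minus the WT banding difference was -8.17 for Rgs5 1420942_s_at, -5.11 for Prkaca 1450519_a_at and -2.74 for Pja2 1452328_s_at. In each the WT sham array was under the floor, so the size is a bound. All 3 have a suffix that marks shared probes, and none is left when such probe sets are taken out. At a floor of log2 7 the Pja2 value was -0.74. The 9 control probe sets were all higher in WT banded than in WT sham, by 2.91 to 7.67 with the same floor, and their part in these values was not tested.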

How the results depend on the processing

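Counts past 2-fold are given for KO banding, WT banding, KO minus WT in sham and KO minus WT in banded, in that order. The signalling genes had 6, 6, 4 and 6 probe sets past 2-fold. With 1 probe set per gene, the brightest, the counts were 3, 2, 1 and 2, and with the probe sets of each gene averaged 3, 3, 2 and 3. Without probe sets whose suffix marks shared probes they were 2, 2, 0 and 1. These 3 alternatives leave fewer features to count. At 1.5-fold the sham count was 9. Under floors of log2 5 and 7, no floor, quantile normalization, cyclic loess and median centring, each count stayed within 1.5 times.

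Over all probe sets the counts were 731, 2620, 1658 and 1128, in the same order. They were 1220, 4707, 2720 and 2086 with no floor, where every probe set enters, 459, 1743, 1094 and 665 with the brightest probe set, 295, 1297, 782 and 539 with gene means, 420, 1575, 977 and 694 without shared probe sets and 1784, 4166, 3191 and 2407 at 1.5-fold.

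Differences between 2 arrays, and the KO banding difference minus the WT banding difference, were recomputed for single probe sets. Of these 344 values, 327 stayed on their side of 2-fold, 17 crossed it and 0 past 2-fold changed sign. Those that crossed include all 4 differences between 2 arrays of Pja2 1452328_s_at and the KO banding difference of Pja2 1427148_at. These fell within 2-fold at a floor of log2 7. The Gnas 1421740_at difference with WT banding was -1.46 at a floor of log2 5. No paired analysis was possible because each group has 1 array. Differences near the floor are limited by the signal over background.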
